A study of Homo sapiens with 4 samples.

Results

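Urea cycle and glutamine metabolism genes were followed in RNA from cells labelled HepG2, an established human liver cancer line, that were wild type (WT) or carried a knockout of TXNDC9, a thioredoxin-domain protein. The 9 genes were chosen by name, with no threshold on their values: CPS1, OTC, ASS1, ASL, ARG1, ARG2, NAGS, GLUL and GLUD1. They were 9 of the 57979 genes in the deposited table, and each symbol occurred once. Polyadenylated RNA from 2 WT and 2 TXNDC9-KO libraries was sequenced. Each gene was given as FPKM, a fragment count already divided by transcript length and scaled for the size of the library. How the libraries were scaled to each other is not given in the sources used here. The knockout was made with CRISPR-Cas9 from a lentivirus carrying the nuclease and a guide RNA against TXNDC9. Both groups were grown in DMEM with fetal bovine serum. The sources used here do not say which guide the sequenced cells carried, whether they were a clone or a pool, or whether the WT cells carried an empty vector. Figure legends of the study call values measured by RNA-seq those of independent experiments, but give another number of them than the 2 libraries a group analysed here. Whether these libraries came from separate cultures is therefore not settled, and p-values measure only the spread between them, which may be technical.

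The urea cycle turns ammonia, which is toxic, into urea and runs mainly in the hepatocytes around the portal vein. NAGS makes N-acetylglutamate, the activator that CPS1 needs to build carbamoyl phosphate from ammonia and bicarbonate in mitochondria. OTC joins carbamoyl phosphate to ornithine to give citrulline, ASS1 couples citrulline to aspartate, ASL splits the product into arginine and fumarate, and ARG1 releases urea and restores ornithine. ARG2 is the mitochondrial arginase found outside the liver. Glutamine is the other store of ammonia: GLUL makes it from glutamate and ammonia, in the liver in the hepatocytes around the central vein, and GLUD1 interconverts glutamate with 2-oxoglutarate and ammonia.

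The cell label did not match its defining markers. Of 10 hepatocyte markers (ALB, AFP, APOA1, APOB, TTR, SERPINA1, TF, FGB, AHSG and HNF4A), 5 to 7 were listed at 0 in each library, and the highest value of any of them was 0.449 FPKM, for AFP. Their summed level was 0.446 and 0.733 FPKM in WT and 0.0479 and 0.174 FPKM in TXNDC9-KO. APOA1 and AHSG, and the liver transcription factor FOXA2, were listed at 0 in all 4 libraries. None of 12 housekeeping genes, chosen after the values were seen, was at 0 in any library (7.86 to 12001 FPKM). These 12 were not level between the groups. ACTB read 4747 and 6310 FPKM in WT and 2106 and 2398 FPKM in TXNDC9-KO. YWHAZ was higher in both TXNDC9-KO libraries, EEF1A1 and TBP overlapped, and the others were lower in both. With the hepatocyte markers at or near 0, the cells are called here by their label only. Of 8 markers of blood, endothelial, fibroblast, muscle and squamous cells, CD3E and COL1A2 were at 0 in all libraries, and the summed level ranged from 33.1 to 39.1 FPKM in WT and from 28.6 to 30.2 FPKM in TXNDC9-KO, most of it COL1A1 (31.5 and 22.8 against 20.7 and 17.5 FPKM). In the test described next, the 2 most different of these markers did not pass, but both depended on the processing. CD68 stood at a log2 fold change of 0.58 (adjusted p = 0.0627 by limma), at 1.13 (adjusted p = 0.00588) after a correction for length and GC content, at 1.26 (adjusted p = 0.00121) with libraries rescaled to a common sum, and at 0.88 (adjusted p = 0.00677) without WT replicate 2 and 0.29 without WT replicate 1. COL1A1 stood at −0.49 (adjusted p = 0.0536), at −0.43 after the correction, at 0.19 rescaled, at −0.72 (adjusted p = 0.00446) without WT replicate 2 and −0.26 without WT replicate 1, and it passed with the replicate number fitted as a block (adjusted p = 0.00544). What part cell identity has in the results below was not tested.

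Differences were tested with limma on log2(FPKM + 0.1) over the 13246 genes with an average above 1 FPKM. A gene passed the test at a Benjamini-Hochberg adjusted p under 0.01, and it was called when it also differed by at least 2-fold. TXNDC9 itself stood at 35.1 and 37.3 FPKM in WT and at 21.9 and 27.6 FPKM in TXNDC9-KO, a log2 fold change of −0.55 (SE 0.14, adjusted p = 0.0145) that did not pass. With the length and GC correction it was −0.58 (adjusted p = 0.0136), and rescaling to a common library sum turned it to 0.12 (adjusted p = 0.449). EIF5B, which overlaps TXNDC9 on the opposite strand, read 56.6 and 83.6 FPKM in WT and 32.8 and 35.4 FPKM in TXNDC9-KO. On the FPKM scale both libraries labelled TXNDC9-KO thus lay below both WT libraries, with the targeted transcript still present. A level of RNA does not measure the edit or the protein. Summed FPKM was 805816 and 971102 in WT and 535973 and 568279 in TXNDC9-KO. When every library was rescaled to the same sum (TPM), the median over every tested gene of the log2 fold change moved from −0.088 to 0.59, and the share of called genes that were higher moved from 48.3% to 90.7%. Centring each library on its median gave a median of −0.23 and a share of 35.8%. Across the 13112 tested genes with a known length, the log2 fold change rank-correlated with transcript length (Spearman 0.495) and with GC content (−0.462), and genes are not independent replicates. A loess correction of each library for length and GC content is therefore given as a second value beside the results for named genes. In bulk RNA, fewer cells of a type and less RNA per cell cannot be told apart.

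Sequence before the transcription start is shown for ASS1, the one called gene, and for ASL, the next enzyme of the cycle. It is also shown for GLUL and for ARG1, which was at or near 0. Each is the 250 bases before a RefSeq transcription start (GRCh38.p14), written 5′ to 3′ on the gene's strand, and capitals mark matches to CACGTG (the E-box bound by MYC-family proteins), TATAAA or CCAAT, each searched on both strands, so that CCAAT can appear as ATTGG and TATAAA as TTTATA. The windows lie at chr9:130444711-130444960 (plus strand) for ASS1, chr7:66075569-66075818 (plus strand) for ASL, chr1:182391791-182392040 (minus strand) for GLUL and chr6:131572976-131573225 (plus strand) for ARG1.
ASS1: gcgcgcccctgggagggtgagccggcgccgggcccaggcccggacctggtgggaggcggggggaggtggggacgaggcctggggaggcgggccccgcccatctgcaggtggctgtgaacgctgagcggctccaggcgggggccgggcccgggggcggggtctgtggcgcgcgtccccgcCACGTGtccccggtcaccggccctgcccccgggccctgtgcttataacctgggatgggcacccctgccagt
ASL: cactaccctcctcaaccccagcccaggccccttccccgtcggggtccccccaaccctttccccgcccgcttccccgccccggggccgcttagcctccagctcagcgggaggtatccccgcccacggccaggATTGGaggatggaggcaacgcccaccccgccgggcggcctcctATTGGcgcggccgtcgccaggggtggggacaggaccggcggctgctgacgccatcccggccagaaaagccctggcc
GLUL: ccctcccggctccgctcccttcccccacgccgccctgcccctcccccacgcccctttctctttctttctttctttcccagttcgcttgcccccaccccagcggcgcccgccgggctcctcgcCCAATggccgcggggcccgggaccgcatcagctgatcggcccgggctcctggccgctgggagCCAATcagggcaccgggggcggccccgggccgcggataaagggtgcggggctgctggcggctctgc
ARG1: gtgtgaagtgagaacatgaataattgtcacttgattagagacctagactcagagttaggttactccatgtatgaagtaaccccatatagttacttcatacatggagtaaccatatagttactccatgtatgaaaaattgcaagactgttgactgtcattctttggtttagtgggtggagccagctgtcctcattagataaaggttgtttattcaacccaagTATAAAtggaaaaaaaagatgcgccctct
The ASS1 window was 78.8% G and C with 24 CpG dinucleotides, the ASL window 74.0% with 22 and the GLUL window 74.8% with 25, whereas the ARG1 window was 37.6% with 1. The window of OTC, which was listed at 0, was 40.4% with 2. Other cycle genes differed from this contrast. NAGS, below 1 FPKM, had a window of 65.6% with 13. The 3 windows of the abundant CPS1 were 33.6%, 48.4% and 40% with 3, 1 and 3. A relation of base composition to level was not tested. ASS1 held 1 CACGTG beginning 71 bases before the start. CACGTG occurred in 6.34% of 35116 RefSeq windows of this length, and in 2 of the 13 windows that the table holds for the 9 genes. ARG1 held 1 TATAAA, 29 bases before its start, a motif of 10.7% of all windows and of 2 of the 13. ASL and GLUL each held 2 CCAAT matches, a motif of 32.0% of all windows and of 4 of the 13. No match overlapped another, and a match is a description of the letters only. For CPS1 none of its 3 windows lay at the canonical GENCODE start (36756 to 78914 bases away), and none is printed.

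The cycle was unevenly represented. ASS1 and CPS1 together made up 85.1% and 86.0% of the summed FPKM of the 9 genes in WT and 80.8% and 81.6% in TXNDC9-KO. GLUD1, ASL, GLUL and ARG2 followed at levels between 3.96 and 46.5 FPKM. NAGS stayed below 1 FPKM, ARG1 did not exceed 0.0348 FPKM, and OTC was listed at 0 in every library. Transcripts for the steps at OTC and ARG1 were thus at or near 0 in cells where those for CPS1 and ASS1 were among the more abundant. CPS1 ranked 793rd and 1066th among the 57979 genes in the WT libraries and 294th and 302nd in the TXNDC9-KO libraries, while ASS1 moved from ranks 568 and 567 to ranks 1286 and 1232.

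**Figure D1:**
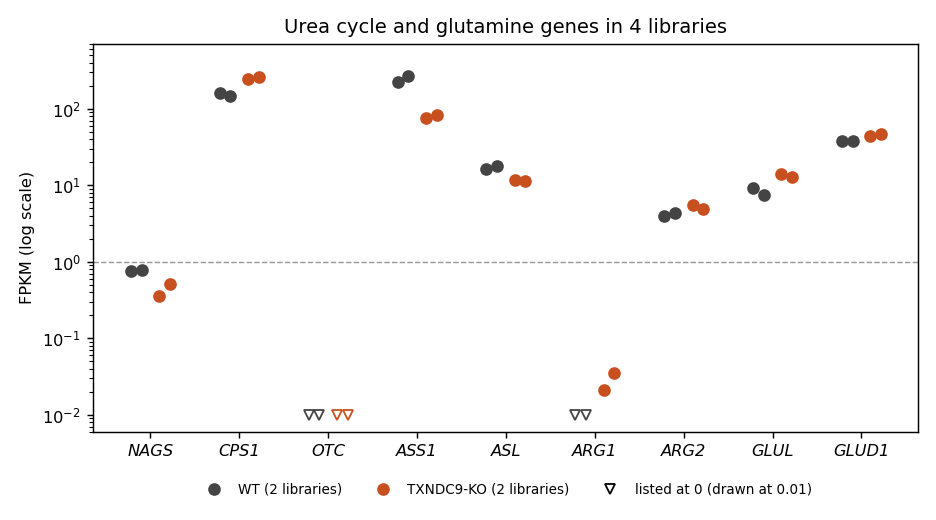
Level of each of the 9 genes in the 2 WT and 2 TXNDC9-KO libraries, in FPKM on a log10 axis, with a point for each library. Values listed at 0 are drawn as triangles at the lower edge, and the dashed line marks 1 FPKM, the average above which a gene was tested. The WT and TXNDC9-KO points of ASS1 lie apart, 225 and 270.3 against 75.1 and 82.5 FPKM, and OTC is at 0 in all 4 libraries.

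Of the 9 genes, 6 were tested, and 1 of them, ASS1, was called lower, against a background of 15.3% of all tested genes called lower. By limma 0 were called higher, against 14.2% of all tested genes. At an unadjusted p under 0.05 2 were lower and 3 higher, 0 of the higher ones by 2-fold. In either direction, 9442 of the 13246 tested genes had an unadjusted p under 0.05 by limma. At the adjusted p alone, 2 of 6 fell (ASS1 and ASL) and 2 of 6 rose (CPS1 and GLUL), where 27.1% of all tested genes fell and 23.7% rose. The 2 TXNDC9-KO values lay below both WT values for ASS1 and ASL, and above both for CPS1, GLUL, GLUD1 and ARG2; 45.9% of all tested genes lay below and 40.1% above, so that a gap between the groups was common in this table. The median log2 fold change of the 6 was 0.30, beside −0.088 over all tested genes. With 6 genes counted, these shares are near the background, and the results below are those of single genes.

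**Figure D2:**
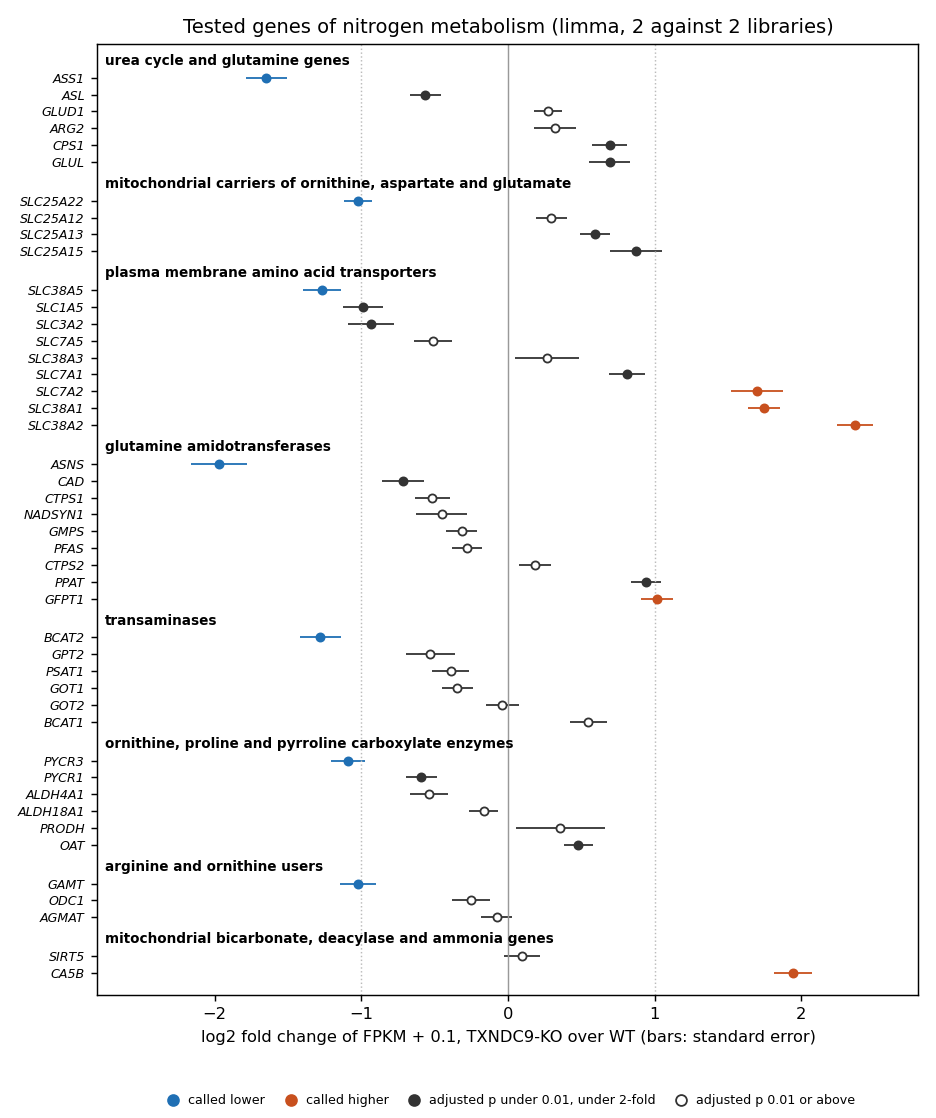
Log2 fold change, TXNDC9-KO over WT, of the 6 tested urea cycle and glutamine genes and of tested genes of the wider lists of metabolism, with bars of 1 SE from limma. ASS1 (−1.65) and ASNS (−1.97) lie farthest to the left and SLC38A2 (2.37) farthest to the right.

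At the entry of the cycle, CPS1 was the more abundant and NAGS scarce. CPS1 (ENSG00000021826, chr2:210477682-210679107 in hg38, plus strand) read 162 and 147 FPKM in WT and 245 and 256 FPKM in TXNDC9-KO. The means were 155 ± 10.6 and 250.3 ± 8.0 FPKM (SD, n = 2 each), a 1.62-fold higher level in TXNDC9-KO (log2 fold change 0.69, SE 0.12, 95% interval 0.40 to 0.99, adjusted p = 0.00370 by limma). CPS1 therefore rose without reaching the 2-fold call on the FPKM scale (rescaled to TPM it was called higher, at 1.37, adjusted p = 2.31e-04), and both knockout libraries exceeded both WT libraries. Its transcript is long (5760 nt, against a median of 2866.5 nt) and poor in G and C (43.8%), and with the length and GC correction the log2 fold change was −0.061 (adjusted p = 0.635). Overlapping CPS1, the intronic transcript CPS1-IT1 did not exceed 0.307 FPKM. NAGS (ENSG00000161653, chr17:44004622-44009068, plus strand) was listed at 0.764 and 0.786 FPKM in WT and at 0.359 and 0.517 FPKM in TXNDC9-KO, both below both WT values, at levels too low to be tested.

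The next step was not detected as a transcript. OTC (ENSG00000036473, chrX:38352586-38421446, plus strand), the only X-linked gene of the cycle, was listed at 0 in all 4 libraries. The FPKM values showed no common step that 1 read would be worth (the commonest ratio between low genes of a pair of libraries was shared by 1.2% to 4.5% of them), so the depth is unknown and no upper limit for OTC could be set.

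ASS1, which joins citrulline to aspartate, gave the one called difference of the 9 genes. ASS1 (ENSG00000130707, chr9:130444961-130501274, plus strand) read 225 and 270.3 FPKM in WT and 75.1 and 82.5 FPKM in TXNDC9-KO. Both knockout libraries lay far below both WT libraries, and the gap between the groups was wider than the spread within either. The means were 248 ± 31.9 and 78.8 ± 5.24 FPKM (SD, n = 2 each), a 3.14-fold lower level in TXNDC9-KO (log2 fold change −1.65, SE 0.14, 95% interval −1.99 to −1.31, adjusted p = 5.61e-04 by limma). With the length and GC correction the log2 fold change was −1.04 (adjusted p = 0.00131) and the call held. Rescaled to TPM it was −0.97 (adjusted p = 1.72e-04), which passed the test but fell short of 2-fold. Without TXNDC9-KO replicate 1 the log2 fold change was −1.58 (adjusted p = 0.0237), and without TXNDC9-KO replicate 2 it was −1.71 (adjusted p = 0.0232). The call was lost with either, but with either left out 0 of the 13246 genes reached an adjusted p under 0.01 by limma, so the loss is not particular to ASS1. None of 10 pseudogene copies of ASS1 elsewhere in the genome exceeded 0.261 FPKM, and 6 were at 0 in all libraries. No other gene of the annotation overlapped ASS1.

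ASL, the lyase that follows ASS1, moved in the same direction by less. ASL (ENSG00000126522, chr7:66075800-66094697, plus strand) read 16.3 and 17.9 FPKM in WT and 11.6 and 11.5 FPKM in TXNDC9-KO. The means were 17.1 ± 1.18 and 11.5 ± 0.0433 FPKM (SD, n = 2 each), and ASL fell by 0.56 on the log2 scale (SE 0.10, adjusted p = 0.00486 by limma), which is under 2-fold. The direction rested on the scaling: rescaled to TPM the log2 fold change was 0.11 (adjusted p = 0.472), and with the length and GC correction it was −0.011 (adjusted p = 0.935). Another protein-coding gene of the annotation, ENSG00000249319, overlaps ASL on the same strand. Its level is not given here, and reads from that overlap cannot be told apart. The pseudogene ASLP1 was listed at 0.

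Of the 2 arginases, ARG1, which ends the cycle, was at or near 0, and ARG2 was low but tested. ARG1 (ENSG00000118520, chr6:131470832-131584332, plus strand), the arginase of the liver, was listed at 0 in both WT libraries and at 0.0210 and 0.0348 FPKM in TXNDC9-KO. It overlaps MED23 on the opposite strand, which read 6.48 and 5.34 FPKM in WT and 11.9 and 11.1 FPKM in TXNDC9-KO, and strand use in counting was not given in the sources used here, so these reads cannot be told apart from those of MED23 and no fold is given. ARG2 (ENSG00000081181, chr14:67619920-67651708, plus strand), the mitochondrial form, read 3.96 and 4.33 FPKM in WT and 5.55 and 4.85 FPKM in TXNDC9-KO. Both knockout values of ARG2 were the higher ones, but the log2 fold change of 0.32 (SE 0.14, 95% interval −0.03 to 0.67, adjusted p = 0.0899 by limma) did not pass. The value was 0.40 (adjusted p = 0.0557) with the length and GC correction, and it passed at 0.99 (adjusted p = 0.00316) when rescaled to TPM. VTI1B, which overlaps ARG2 on the opposite strand, read 44.4 and 52.1 FPKM in WT and 33.5 and 36.2 FPKM in TXNDC9-KO. With strand use unknown, reads from the overlap of ARG2 and VTI1B cannot be told apart either. With that limit, the arginase transcript with the higher FPKM in these libraries was that of the extrahepatic form.

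On the glutamine side, GLUL rose and GLUD1 did not pass on the FPKM scale. GLUL (ENSG00000135821, chr1:182378098-182392206, minus strand), glutamine synthetase, read 9.13 and 7.36 FPKM in WT and 13.9 and 12.8 FPKM in TXNDC9-KO. The means were 8.24 ± 1.25 and 13.3 ± 0.783 FPKM (SD, n = 2 each), a 1.62-fold higher level with no overlap of the groups (log2 fold change 0.69, SE 0.14, adjusted p = 0.00649 by limma). GLUL has the longest transcript of the 6 tested genes (7554 nt, 44.7% G and C), and with the length and GC correction its log2 fold change was −0.19 (adjusted p = 0.238). Centred on the library median it was 0.55 (adjusted p = 0.0238), which did not pass. All 4 copies of GLUL in the table were at 0. GLUD1 (ENSG00000148672, chr10:87050202-87094843, minus strand), glutamate dehydrogenase, read 37.6 FPKM in both WT libraries and 44.5 and 46.5 FPKM in TXNDC9-KO. Its log2 fold change of 0.27 (SE 0.10, 95% interval 0.03 to 0.51, adjusted p = 0.0470 by limma) did not pass, and with the length and GC correction it was −0.044 (adjusted p = 0.717). Rescaled to TPM, GLUD1 passed at 0.95 (adjusted p = 6.58e-04) and GLUL was called higher at 1.37. Among 6 copies of GLUD1, GLUD2 included, 4 were at 0 and the highest, GLUD1P3, reached 2.25 FPKM. SHLD2 overlaps GLUD1 on the opposite strand.

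**Figure D3:**
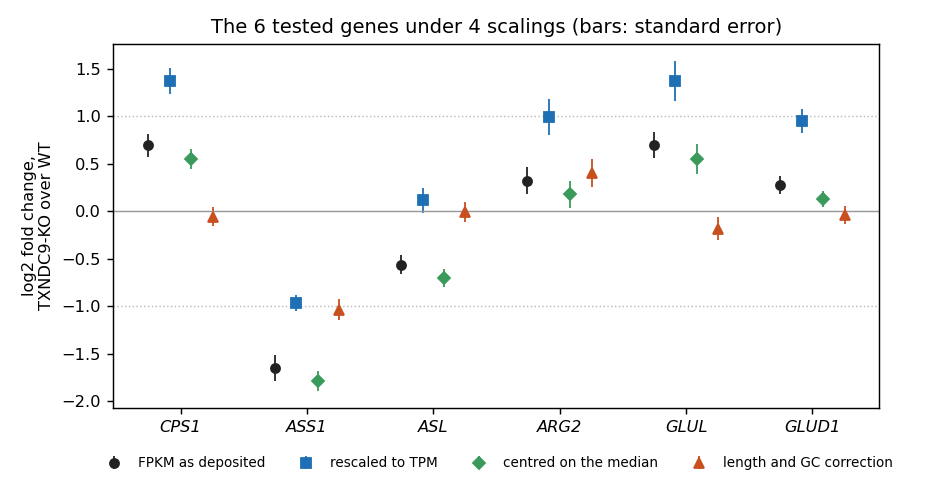
Log2 fold change, TXNDC9-KO over WT, of the 6 tested genes with FPKM as deposited, rescaled to TPM, centred on the library median, and corrected for transcript length and GC content, with bars of 1 SE from limma. ASS1 is below 0 under all 4 (−1.65, −0.97, −1.79 and −1.04). CPS1, GLUL and GLUD1 are above 0 under the first 3 and at −0.061, −0.19 and −0.044 after the correction.

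Ratios of 2 genes within a library do not depend on how the library was scaled. CPS1 over ASS1 was 0.721 and 0.546 in WT and 3.26 and 3.10 in TXNDC9-KO. The transcript with the higher FPKM was thus ASS1 in WT and CPS1 in TXNDC9-KO, and no enzyme was measured. ASL over ASS1 was 0.0722 and 0.0663 in WT and 0.154 and 0.139 in TXNDC9-KO. GLUL over GLUD1 was 0.243 and 0.195 in WT and 0.312 and 0.275 in TXNDC9-KO, and CPS1 over GLUD1 was 4.32 and 3.92 in WT and 5.50 and 5.51 in TXNDC9-KO. In these 4 ratios the groups did not overlap. How common such a gap is among ratios of other gene pairs was not computed. For single genes, whose values do depend on the scaling, 45.9% of all tested genes lay below and 40.1% above. With 2 libraries against 2, an exact two-sided permutation test cannot go below p = 0.33, so no test of a ratio is given. Differences in length and GC content remain in such ratios: ASS1 has 1532 nt and 55.9% G and C, and CPS1 has 5760 nt and 43.8%. After the length and GC correction the log2 fold changes of CPS1, GLUL and GLUD1 were −0.061, −0.19 and −0.044. On these corrected values the ratios over GLUD1 were not higher in TXNDC9-KO. ASS1 stood at −1.04, below CPS1 and ASL (−0.011), so the ratios over ASS1 still were.

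**Figure D4:**
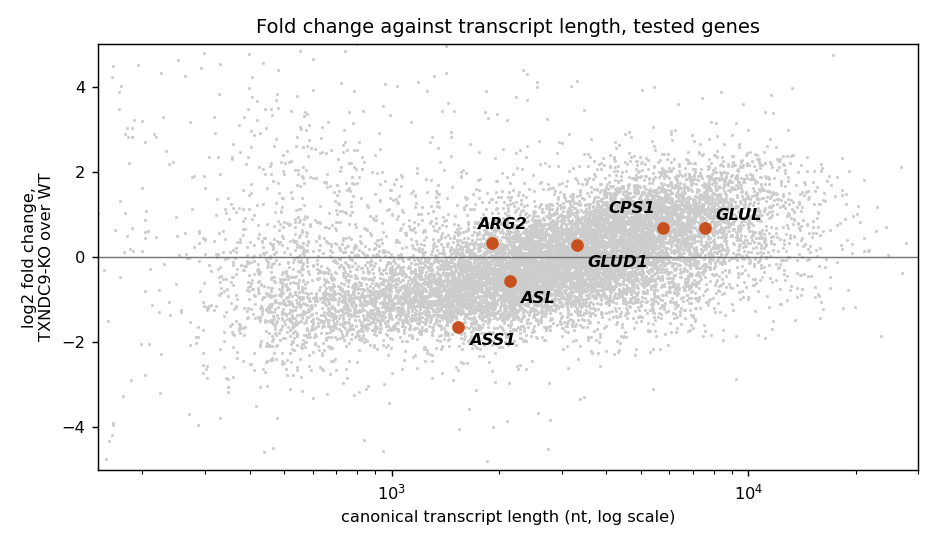
Log2 fold change, TXNDC9-KO over WT, of tested genes against transcript length in nt on a log10 axis, with the 6 tested urea cycle and glutamine genes named. Genes with short transcripts lie lower and those with long transcripts higher (Spearman 0.495 across 13112 genes, of which 36 fall outside the axes). ASS1, at 1532 nt, lies at −1.65 and GLUL, at 7554 nt, at 0.69.

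The surrounding pathway was read from 8 lists holding 53 further genes, of which 41 were tested. The calls were 7 lower and 6 higher (17.1% and 14.6% of those tested, beside 15.3% and 14.2% of all tested genes). At the adjusted p alone 11 fell, 11 rose and 19 did not pass, and the log2 fold changes had a median of −0.25. After the length and GC correction, 4 of the 13 calls remained, ASNS, CA5B and SLC38A2 among them, and 1 gene not called before, GMPS, was called lower. Rescaled to TPM, 1 was called lower and 12 higher, with 7 of the 13 calls kept. These were 2.4% and 29.3% of those tested, beside 3.4% and 33.1% of all tested genes on that scale. With either TXNDC9-KO library left out, no gene of the table passed by limma, these 13 included, while the log2 fold change of SLC38A2 was 2.36 and 2.38 and that of ASNS −1.88 and −2.06. GMPS and, in the next paragraphs, SLC38A5 and SLC7A2 were named after their values were seen.

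Of 9 tested amino acid transporters of the plasma membrane, 3 fell and 4 rose. SLC38A2, a sodium-coupled carrier of glutamine and other small neutral amino acids, read 97.1 and 85.4 FPKM in WT and 474 and 467 FPKM in TXNDC9-KO, which was 5.16-fold (log2 fold change 2.37, adjusted p = 4.86e-04 by limma; 1.54 after the length and GC correction). Its relative SLC38A1 read 47.3 and 42.5 FPKM in WT and 149.8 and 152 FPKM in TXNDC9-KO (log2 fold change 1.75, adjusted p = 5.01e-04; 0.73 after the correction). SLC7A2, a carrier of arginine and other cationic amino acids, was the third gene called higher (1.70), and stood at 0.71 (adjusted p = 0.0237) after the correction. SLC38A5, another glutamine carrier, was called lower (−1.27), and after the correction it passed without reaching 2-fold (−0.72, adjusted p = 0.00381). No common direction was seen among these carriers.

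The mitochondrial carriers divided as well. SLC25A15, which exchanges ornithine for citrulline across the inner membrane and so links both compartments of the cycle, read 6.86 and 4.86 FPKM in WT and 10.6 and 10.7 FPKM in TXNDC9-KO, and rose (log2 fold change 0.87, adjusted p = 0.00692 by limma), with 0.48 (adjusted p = 0.0426) after the length and GC correction. SLC25A22, a glutamate carrier, read 34.3 and 35.5 FPKM in WT and 16.7 and 17.5 FPKM in TXNDC9-KO and was called lower (−1.02, adjusted p = 6.66e-04; −0.37 after the correction). SLC25A13, the aspartate-glutamate carrier that supplies ASS1 with aspartate, rose (0.59, adjusted p = 0.00338), with 0.30 (adjusted p = 0.0390) after the correction.

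Among the glutamine amidotransferases, ASNS had the log2 fold change of largest size. ASNS, which makes asparagine with nitrogen from glutamine, read 70.5 and 102 FPKM in WT and 20.2 and 22.9 FPKM in TXNDC9-KO, and was called lower (log2 fold change −1.97, SE 0.19, adjusted p = 6.87e-04 by limma), also after the length and GC correction (−2.09). GFPT1, which starts hexosamine synthesis with glutamine, was called higher at 1.02, and its value after the correction was −0.13. Of the 9 tested amidotransferases 2 fell, 2 rose and 5 did not pass. Of 6 tested transaminases 1 fell, BCAT2 (−1.28), which stood at −0.49 (adjusted p = 0.0143) after the correction. Its cytosolic counterpart BCAT1 (0.55, adjusted p = 0.0106) did not pass and stood at −0.66 (adjusted p = 0.00851) after the correction. Of 7 tested enzymes of ornithine and proline metabolism 3 fell and 1 rose, with PYCR3, which forms proline, at −1.09 and, after the correction, at −0.72 (adjusted p = 0.00399). Of 3 tested users of arginine and ornithine, GAMT, which makes creatine, fell (−1.02; −0.086 after the correction), and ODC1, the first enzyme of polyamine synthesis, did not pass (−0.25, adjusted p = 0.140; −0.22 after the correction).

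Of 6 genes that supply bicarbonate to CPS1, deacylate it or release ammonia, 2 were tested. CA5B, a mitochondrial carbonic anhydrase, read 5.78 and 4.94 FPKM in WT and 19.7 and 22.2 FPKM in TXNDC9-KO and was called higher (log2 fold change 1.95 by limma, and 1.06 after the length and GC correction). SIRT5, the mitochondrial deacylase that acts on CPS1, did not pass (0.095, adjusted p = 0.518; −0.33 after the correction), but rescaled to TPM it did (0.77, adjusted p = 0.00749). Of 6 liver transcription factors 3 were tested, and 0 passed by limma (0 also at an unadjusted p under 0.05). TBX3 stood at 0.39 (adjusted p = 0.129) and at 0.13 after the correction, but passed without WT replicate 1 (0.68, adjusted p = 0.00190; 0.097 without WT replicate 2) and rescaled to TPM (1.07, adjusted p = 0.00988). CEBPB stood at 0.11 (adjusted p = 0.573), and at 1.01 (adjusted p = 0.00364) after the correction.

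The gene of these lists whose 4 log2 values, each centred on the gene's own mean, lay nearest to those of each tested gene was found by Euclidean distance among 52 others in 4 libraries. ASNS was nearest to ASS1 (distance 0.375), SLC25A13 to CPS1 (0.137), PYCR1 to ASL (0.0921), SLC7A1, a carrier of cationic amino acids, to GLUL (0.159), SLC25A12, the other aspartate-glutamate carrier, to ARG2 (0.0968) and SLC38A3 to GLUD1 (0.0502). The distance of ASS1 to its nearest gene was the largest of the 6. With 4 libraries in 2 groups, the distance mostly compares the size of the difference between the groups.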

How the data were processed

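RNA-seq of 2 WT and 2 TXNDC9-KO libraries was analysed from the table of FPKM that the authors deposited. Per the labels and the study's methods, the authors aligned reads with TopHat2 to hg38 with an Ensembl annotation and made FPKM with Cuffdiff and Cufflinks. Versions, the scaling between libraries, strand use and depth were not given in the sources used here, so no counting interval could be set. The authors' own fold changes, p-values and q-values were in the same table and were not used.

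Of 231916 lines, 57979 held values. Each gene identifier occurred 4 times and stood out of register with its symbol. The identifiers were put back in order, and those of all 9 genes and TXNDC9 then matched their symbols in GENCODE v44, which also gave positions, lengths and GC content. Of the symbols, 28 had become dates.

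The test was limma 3.58.1 (R 4.3.3) with trend on log2(FPKM + 0.1), without a replicate block, on the 13246 genes with an average above 1 FPKM, with Benjamini-Hochberg adjustment over all of them. Calls needed at least 2-fold besides an adjusted p below 0.01. Fold changes on this scale understate those of low genes. Alternatives were other pseudocounts (1 and 0.01), other filters, TPM, median centring, no trend, a replicate block, loess correction for length and GC content (span 0.3), a threshold of 0.05, and leaving out each library. The script was tested on simulated data.

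The 9 genes and all lists were chosen with earlier results of these data known, and the 12 housekeeping genes after the values were seen. Named were the 9 genes, TXNDC9, the 2 tested genes of each list with the largest difference, and the gene nearest in pattern to each tested one. Other genes named are marked as such, and a few genes under this rule are not reported here. The 3 genes at or below 1 FPKM were given as values. Promoter windows were taken from RefSeq and were found for all 9 genes.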

Additional observations from a re-analysis of the deposited data

How the results depend on the processing

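The depth of the libraries is unknown, and 2 libraries a group give few degrees of freedom. Of all tested genes, 2021 were called lower and 1885 higher. Leaving out 1 library gave 0 to 2633 lower and 0 to 2136 higher. Without either TXNDC9-KO library no gene reached an adjusted p under 0.01 by limma on 3 libraries, where the lone library is assumed to vary like the other group, so the loss of a call there is not particular to any gene, while 7129 and 7307 genes had an unadjusted p under 0.05. ASS1 was then no longer called (0 to 1 of the 9 genes called lower), and the wider lists held 0 to 9 lower and 0 to 6 higher calls.

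Rescaled to TPM, 447 genes were called lower and 4380 higher. Of the 9 genes 6 were tested, and 0 were then called lower and 2 higher (CPS1 and GLUL). The 2 were 33.3% of those tested, beside 33.1% of all tested genes. Of the wider lists 1 was called lower and 12 higher (2.4% and 29.3% of those tested, beside 3.4% and 33.1%). TXNDC9 was at 0.12. ASL (0.11), ODC1 (0.43) and COL1A1 (0.19) changed direction. With the length and GC correction, 1193 were called lower and 749 higher (1198 and 738 with the replicate block), and of the wider lists 2 lower and 3 higher, with or without the block. Without the block, those of the wider lists were 4.9% and 7.3% of the tested ones, beside 9.1% and 5.7% of all tested genes. CPS1 (−0.061), GLUL (−0.19), GLUD1 (−0.044), GFPT1 (−0.13), BCAT1 (−0.66) and SIRT5 (−0.33) changed direction, with or without the block. Centring on the median turned SIRT5 (−0.048) and CEBPB (−0.036) and gave TXNDC9 −0.70. CEBPB ranged from −0.10 to 0.32 when 1 library was left out. An average above 5 FPKM left 1220 higher calls. In all these cases the cause was not tested.

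TXNDC9 passed at an average above 5 FPKM (−0.55, adjusted p = 0.00906 by limma), at a threshold of 0.05 (−0.55), centred (−0.70), and with the replicate block (−0.55, adjusted p = 0.00267, and −0.58 with the length and GC correction). Deviations of same-numbered libraries correlated at −0.0904 over genes. With 2 libraries a group, this value cannot decide whether the numbers pair the libraries. The replicate block gave 2146 lower and 1960 higher calls and left the calls of the 9 genes at 1 lower and 0 higher.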
